A study of Mus musculus with 18 samples.

Results

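The circRNA described here is mmu_circRNA_009696, an intronic circRNA of Malat1 on mouse chromosome 19, measured by probe ASCRP4014131. It was chosen because its methylation level in the 3d arrays, set against the sham arrays, placed it among the study's hypermethylated circRNAs, and it is 1 of 14236 circRNA probes on the array. The comparison of 3d with sham is therefore given below as a description, with no test. The files give only the probe identifier, and the name was joined to it because the fold change and P value listed for this circRNA were recovered from this probe within a relative tolerance of 1e-04, and from no other. The host gene, the chromosome and the type are those listed by the study. The start and end of the circRNA and its sequence are not given in the sources used here.

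The tissue was cortex from C57BL/6J mice aged 10 weeks. The 3d and 7d groups were taken 3 and 7 days after permanent occlusion of the distal middle cerebral artery (MCAO) with a brief occlusion of both common carotid arteries, and the tissue came from around the infarct. The sham group had the same surgery without the MCAO, and the day on which it was sampled was not used here. Each group had 3 samples, labelled as biological replicates, and the labels do not say how many mice made up a sample. RNA was split with an antibody against m6A into a bound fraction (IP, labelled with Cy5) and an unbound supernatant (Sup, labelled with Cy3), both were treated with RNase R, which digests linear RNA, and both were hybridized to 1 array per sample.

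Malat1 is a long noncoding RNA that is retained in the nucleus, where it gathers at nuclear speckles, the bodies that store splicing factors. It is abundant in brain, its transcript is mostly left unspliced, and it is a known carrier of m6A. Neat1, the scaffold RNA of paraspeckles, is its neighbour on the chromosome. The m6A mark is written by METTL3 with METTL14, removed by FTO and ALKBH5, and bound by the YTH proteins. An intronic circRNA is a circle made of intron sequence, and circles withstand RNase R because they have no free end.

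The typical circRNA spot was dim, with array medians of 36.5 to 50 for IP and 53 to 78.5 for Sup over backgrounds of about 15 to 22. The sham arrays had another scan date than the 3d and 7d arrays, which is read here as another slide. Scan date or slide and sham surgery can thus not be told apart. The 3d arrays lay in another row of their slide than the 7d arrays. Of 28 marker genes of neurons, glia, endothelium and the m6A enzymes, only Mbp, of the oligodendrocyte myelin, was among the 46 mRNA probes that could be named. It was well above background in the Sup channel on all 9 arrays and in the IP channel on 7, with dim raw Sup intensities of 55.5 to 91.75. The cell types of the tissue could thus not be checked. No mRNA probe was for Malat1 or Neat1, so the linear transcript was not measured.

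The Malat1 circRNA was bright on every array. Its raw median intensity in the IP channel was 3833, 1277 and 1020.5 on sham arrays 1 to 3, 7529, 5586.5 and 3516 on the 3d arrays, and 2542, 3312 and 2257 on the 7d arrays. In the Sup channel the raw intensity was 2225, 1879 and 2368.5 on the sham arrays, 1237, 1695.5 and 1551 on the 3d arrays, and 1509, 1781 and 2883 on the 7d arrays. The local background at its spot lay between 14 and 22, and the spot was well above background, unsaturated and free of outlier marks in both channels on all 9 arrays.

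After normalization to the spike-in RNA, the bound fraction carried the larger part of the differences. The normalized IP intensity was 2902, 962 and 778 in sham, 6463, 4400 and 2657 in 3d, and 2044, 2703 and 1697 in 7d. Sham array 1 stood apart from the other sham arrays, and its value lay above that of 3d array 3, so sham and 3d overlapped in the IP channel. In such bulk tissue, fewer cells of a type and less RNA per cell cannot be told apart. The mean IP intensity was 1547 ± 1176 in sham, 4506 ± 1906 in 3d and 2148 ± 511 in 7d (SD, n = 3 each). On the log2 scale the IP change of 3d against sham was 1.71, the highest of the 12211 circRNA probes that passed the filter on low signals. IP is part of the level on which the circRNA was chosen, so this rank is no evidence of a change. At 7d the IP value was lower than at 3d by a factor of 2.00, and 7d array 2 lay just above 3d array 3.

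The unbound fraction differed less between groups, and in the other direction. The normalized Sup intensity was 3241, 2395 and 2891 in sham, 1971, 2390 and 1873 in 3d, and 2008, 2384 and 3108 in 7d. All 3d arrays were below all sham arrays, but 3d array 2 and sham array 2 were almost equal. The share of all probes so separated in Sup was not counted. Sup is also part of the level on which the circRNA was chosen, so nothing is read from this separation. The mean Sup intensity was 2842 ± 425 in sham, 2078 ± 274 in 3d and 2500 ± 559 in 7d (SD, n = 3 each). The log2 change of Sup from sham to 3d was -0.45, while the median of all circRNA probes that passed the filter was 0.19.

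**Figure D1:**
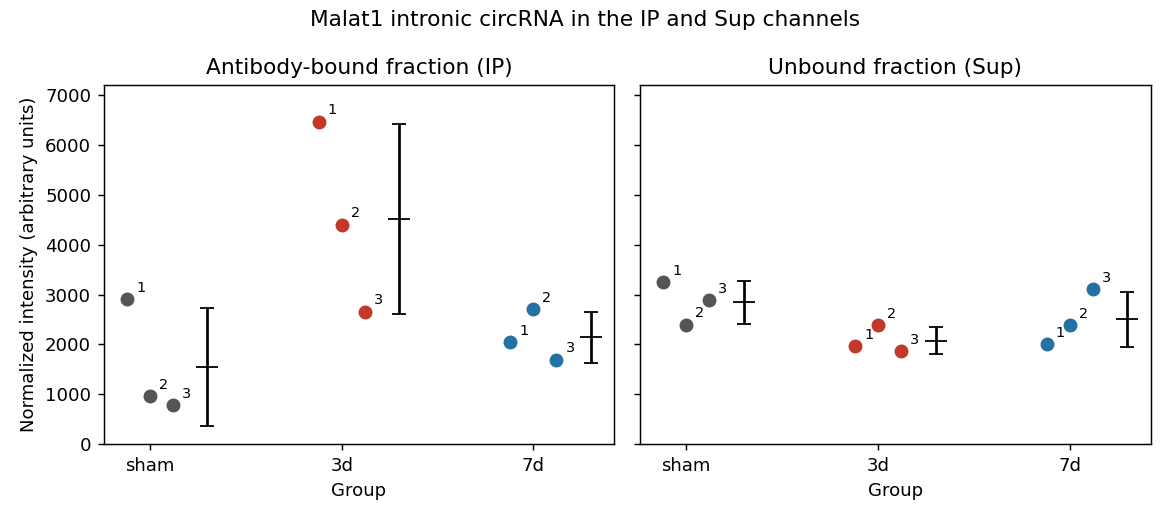
Normalized intensity of the Malat1 circRNA in the IP channel (left) and the Sup channel (right), in arbitrary units, by group. Points are arrays numbered by replicate, and the bars beside them give the mean and SD of 3 arrays. IP was highest at 6463 on 3d array 1, and Sup stayed between 1873 and 3241 on all arrays.

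The methylation level, the IP intensity as a percent of IP plus Sup, was highest at 3d. It was 47.2%, 28.6% and 21.2% on the sham arrays. On the 3d arrays it was 76.6%, 64.8% and 58.6%. On the 7d arrays it was 50.4%, 53.1% and 35.3%. Every 3d array was above every sham array and every 7d array, whereas the 7d and sham arrays overlapped because sham array 1 lay above 7d array 3. Over all tested circRNA probes with values on the 3d and sham arrays, 9.88% also had every 3d array above every sham array, and in 67.1% the arrays of these groups overlapped. The like shares for 3d against 7d were not counted. Between arrays of the same replicate number, 7d was above sham by 3.21, 24.5 and 14.1 percentage points. The mean level was 32.4% ± 13.4 in sham, 66.7% ± 9.14 in 3d and 46.3% ± 9.61 in 7d (SD, n = 3 each). In terms of the ratio of bound to unbound signal, IP over Sup was between 0.269 and 0.895 in sham, between 1.42 and 3.28 in 3d and between 0.546 and 1.13 in 7d. On this spike-in scale the circRNA lay mostly in the unbound fraction on every sham array and mostly in the bound fraction on every 3d array. The percentages depend on the scaling of the channels, and with each channel centred on its median circRNA they were 65.1%, 45.9% and 36.7% in sham, 87.2%, 79.4% and 74.6% in 3d, and 65.3%, 68.6% and 43.0% in 7d, again with every 3d array the highest.

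From sham to 3d the level was 2.16-fold higher, a log2 change of 1.11. This was the highest of the 12211 probes, whose median change was -0.03, but the circRNA was selected on this contrast and the rank is no evidence of it. The SD of the 3 arrays on the log2 scale was 0.58 in sham, 0.20 in 3d and 0.32 in 7d. For 19 probes spotted several times on each array, with mean raw intensities of at least 500, the SD between spots was taken on each array. Its median over the arrays was 0.02 for the median probe and 0.10 for the highest probe. The spread of the Malat1 circRNA within each group was larger than each of these medians, and it was widest in sham.

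The comparisons with 7d used 3 arrays that had no part in the choice, although the sham or 3d arrays on the other side did, and both comparisons share the 7d arrays. The choice favoured low values in sham and high values in 3d, which tilts the 7d level toward lying above sham and below 3d. From sham to 7d the level was 1.49-fold higher, a log2 change of 0.57 (SE 0.26), with a P of 0.0563 and an adjusted P of 0.210 by limma. It did not pass the call rule used throughout, a change of more than 1.5-fold together with P under 0.05 before adjustment, which 0.442% of all tested circRNA probes passed in either direction. Without sham array 1 the log2 change was 0.89 and passed, with a limma P of 0.00155 and an adjusted P of 0.151. Without 7d array 3 it was 0.76 and passed as well, with a limma P of 0.032 and an adjusted P of 0.391. In the other direction, without sham array 3 it was 0.31, with a limma P of 0.215 and an adjusted P of 0.429, and with each channel centred on its median circRNA it was 0.27, with a limma P of 0.253 and an adjusted P of 0.666. The size of this difference therefore depended on single arrays and on the scaling, and its call on single arrays.

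From 3d to 7d the level was 1.45-fold lower, a log2 change of -0.54 (SE 0.26), with a P of 0.0695 and an adjusted P of 0.130 by limma. The threshold was again not passed, and 3.91% of all tested probes passed it. All 3 of the 7d arrays were below all 3 of the 3d arrays. The share of all probes with such a separation was not counted, so nothing is read from it. The direction was opposite to that of the median circRNA, whose log2 change was 0.19, and the Malat1 circRNA stood at place 24 of 12211 from the lowest change. The choice on high 3d values favours both this direction and this place, so they are given as a description. With the deposited values, which were normalized from another signal of the scan, the log2 change was -0.81 and passed the threshold, with a limma P of 0.0203 and an adjusted P of 0.0544. Under those values 26.1% of circRNA probes passed as well. Without 7d array 3 the log2 change was -0.36, with a limma P of 0.255 and an adjusted P of 0.369. With the replicate number as a block it stayed at -0.54, with a limma P of 0.0111 and an adjusted P of 0.0457, still under the fold threshold.

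Arrays in the same column of their slides could be set side by side. In column 1 the level was 47.2% in sham, 76.6% in 3d and 50.4% in 7d. In column 2 it was 64.8% in 3d and 53.1% in 7d. In column 3 it was 28.6% in sham and 58.6% in 3d, and in column 4 it was 21.2% in sham and 35.3% in 7d. Since every 3d array was above every sham and every 7d array, only the order of sham and 7d could differ between columns. In columns 1 and 4, where both were present, 7d was above sham. With the column as a block, the log2 change was 0.90 from sham to 3d, 0.48 from sham to 7d and -0.42 from 3d to 7d. Sham array 1 and 7d array 1, in the same column, differed by a log2 value of 0.09.

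**Figure D2:**
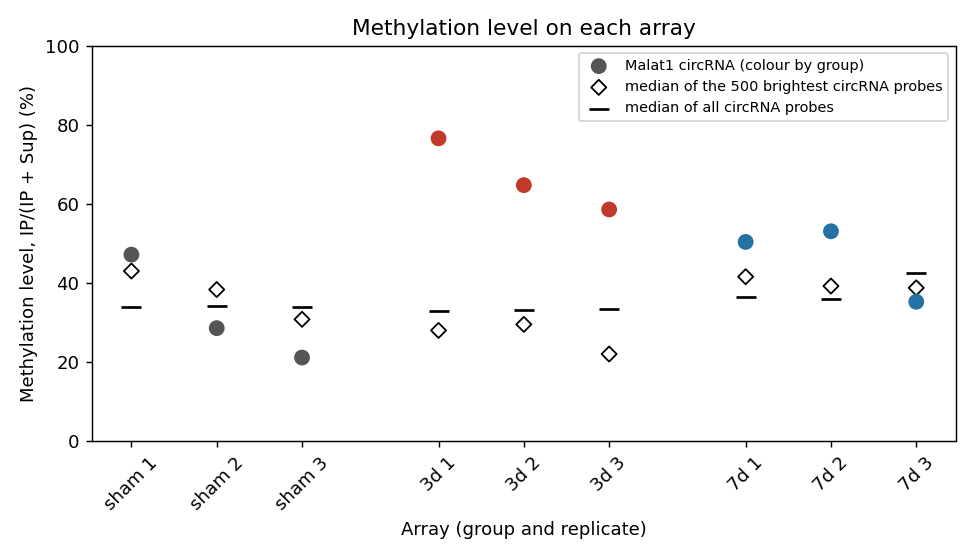
Methylation level (IP as a percent of IP plus Sup) on each of the 9 arrays. Filled points are the Malat1 circRNA, coloured by group, diamonds the median of the 500 brightest circRNA probes and dashes the median of all circRNA probes. The 3d points lie at 58.6% to 76.6%, far above both medians, while the sham and 7d points lie on either side of them.

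Expression, the sum of IP and Sup, differed less than the level. It was 6143, 3357 and 3669 in sham, 8434, 6789 and 4530 in 3d, and 4052, 5087 and 4805 in 7d. All 3 groups overlapped, with sham array 1 above 3d array 3 and above every 7d array. The mean was 4390 ± 1526 in sham, 6584 ± 1960 in 3d and 4648 ± 535 in 7d (SD, n = 3 each). The log2 change from sham to 3d was 0.59, against a median of 0.17 over all tested probes, and is a description since these arrays chose the circRNA.

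From sham to 7d the log2 change of expression was 0.13 (SE 0.25), with a P of 0.609 and an adjusted P of 0.723 by limma, where 3.95% of the tested probes passed the threshold. From 3d to 7d it was -0.46 (SE 0.25), with a P of 0.0771 and an adjusted P of 0.480 by limma, where 8.36% passed. Neither difference passed. Without 3d array 3 the change from 3d to 7d was -0.71 and passed, with a limma P of 0.0130 and an adjusted P of 0.304, and with the slide column as a block it was -0.60 and passed, with a limma P of 0.0278 and an adjusted P of 0.304.

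By expression the circRNA held nearly the same place in all groups. Probes differ in how strongly they bind and how their targets label, so a rank by intensity places the probe's brightness and does not give the relative abundance of different circRNAs. Its expression was between 17.3 and 43.0 times the median circRNA of its array. Among all 14236 circRNA probes its mean expression ranked 315 in sham, 273 in 3d and 225 in 7d, and on single arrays the rank lay between 157 and 428. By mean IP intensity it ranked 303 in sham, 90 in 3d and 174 in 7d, and by mean Sup intensity 330 in sham, 494 in 3d and 265 in 7d. At 3d it thus stood higher in the order of the bound fraction and lower in that of the unbound fraction than in sham or 7d.

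By level its place shifted widely. By the mean level it ranked 8967 in sham, 5 in 3d and 718 in 7d. On single arrays the rank was 662, 11074 and 12783 in sham, 3, 16 and 12 in 3d, and 458, 190 and 12387 in 7d. Sham array 1 was therefore like 7d arrays 1 and 2 in this respect, and 7d array 3 was closer to sham arrays 2 and 3. The probes next to it in this order differed from it by less than the spread between arrays. In sham they were ASCRP4009235 at 32.4% above and ASCRP4001061 at 32.4% below, in 3d ASCRP4010324 at 67.2% and ASCRP4005967 at 66.0%, and in 7d ASCRP4009829 at 46.3% and ASCRP4008836 at 46.3%.

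These ranks depend on the signal and the background correction. For the 4236 dimmest probes by expression, the 5th and 95th percentiles of the mean level in 3d were 32.0% and 37.9%. With an offset of 0 in place of 50, the ranks by level were 12, 41 and 23 on the 3d arrays, 2068, 7179 and 9343 on the sham arrays, and 1313, 606 and 12074 on the 7d arrays. With the processed signals, which differ in the signal as well as in the correction, the 3d arrays gave ranks by level from 29 to 97, the sham arrays from 7386 to 11210 and the 7d arrays from 4088 to 9506. The 3d arrays stayed near the top under both, whereas 7d arrays 1 and 2 did so with the offset of 0 and not with the processed signals.

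The 500 brightest circRNA probes, to which the Malat1 circRNA belonged with rank 266, were taken as a comparison at like signal. This set was chosen after the values were seen. Their median level was 43.1%, 38.4% and 30.9% on the sham arrays, 28.1%, 29.6% and 22.1% on the 3d arrays, and 41.7%, 39.3% and 38.8% on the 7d arrays. The bright circRNAs as a group were thus lower at 3d than in sham or 7d. Of the 500, 86 had a higher mean log2 level in 3d than in sham, while 40.9% of all tested probes with values on these arrays had a higher mean level. The Malat1 circRNA ran against the bright set, but it was chosen for a higher level in 3d than in sham, so this is a description. The Malat1 circRNA was above the median of the bright set by 35.2 to 48.6 percentage points at 3d. Its difference from that median ran from -9.76 to 4.15 points in sham and from -3.5 to 13.9 points in 7d.

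Among these 500, its level ranked 1, 4 and 5 on the 3d arrays, 201, 317 and 323 on the sham arrays, and 123, 70 and 284 on the 7d arrays. Under all 9 settings of background and scaling tried, the rank on the 3d arrays stayed between 1 and 5, and every 3d array was above every sham and every 7d array. Scaling a whole channel cannot change the order of probes within an array. Centring on the median circRNA and using all spike-in probes therefore repeated the ranks by construction, and the deposited values rest on the processed signals. The lower level of the bright set at 3d than in sham was seen in 8 of the 9 settings. In the exception, loess within arrays followed by quantile normalization, the mean of its array medians was 48.2% in 3d and 45.6% in sham.

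**Figure D3:**
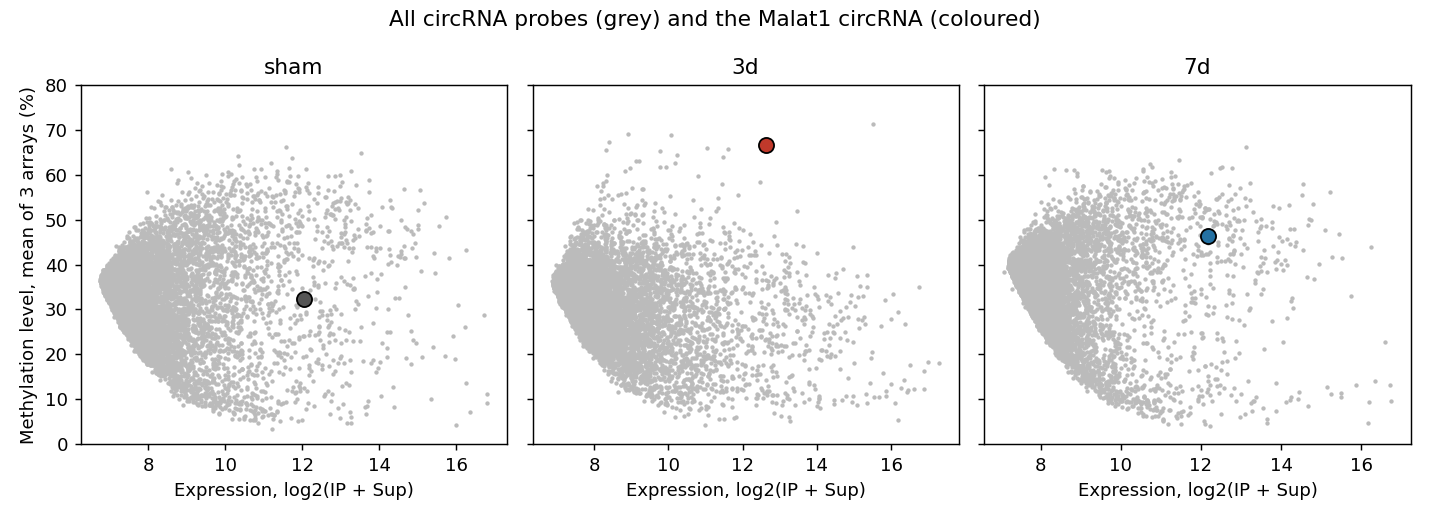
Mean methylation level (percent, vertical axis) against mean expression (log2 of IP plus Sup, horizontal axis) of all circRNA probes in grey, with the Malat1 circRNA as the coloured point, in sham, 3d and 7d. It lies within the cloud at 32.4% in sham, near its upper edge at 66.7% in 3d and in the upper part at 46.3% in 7d.

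Other intronic circRNAs listed by the study did not have this level. The intronic circRNA of Cmss1 (mmu_circRNA_005252) had a mean expression of 77668 in sham and 92658 in 3d. Its level was 13.7% ± 4.43 in sham, 17.7% ± 1.65 in 3d and 14.0% ± 1.32 in 7d (SD, n = 3 each), and its sham and 3d arrays overlapped. The intronic circRNA at XLOC_027457 (mmu_circRNA_19555) on chromosome X had a level of 12.8% ± 6.72 in sham, 13.7% ± 1.74 in 3d and 8.45% ± 0.780 in 7d. The mean level of the Malat1 circRNA was above that of both in every group.

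The sense overlapping circRNAs of the same list were also low. The level of the one at Rn45s, the precursor of ribosomal RNA, was 9.26% ± 1.59 in sham and 12.3% ± 1.02 in 3d. That of the one at DQ715306 was 8.55% ± 1.81 in sham and 13.9% ± 1.74 in 3d, and that of the one at Calm3, a calmodulin gene, was 11.8% ± 3.47 in sham and 18.7% ± 0.826 in 3d (SD, n = 3 each). Of the 9 other circRNAs listed as hypermethylated at 3d, 9 had a higher mean level in 3d than in sham, as had 40.9% of all tested probes with values on these arrays. In 8 of the 9 the 3d arrays were all above the sham arrays, as in 9.88% of those probes. They were chosen on these samples, so nothing is read from these counts. Their mean levels in 3d began at 12.3% and in 9 of 9 were below that of the Malat1 circRNA, and their log2 changes were between 0.17 and 1.09.

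The circRNAs whose level followed that of the Malat1 circRNA most closely over the 9 arrays were ASCRP4005256 with a Pearson r of 0.97, ASCRP4008149 with 0.97, ASCRP4003526 with 0.97, ASCRP4012684 with 0.97 and ASCRP4006690 with 0.96. The files and lists used here give none of them a gene name. Over all tested probes the median r was -0.19 and the 95th percentile 0.55. The closest circRNAs were highest at 3d as well, which their choice by r over these arrays favours. Their levels were lower, with means between 7.23% and 27.7% in sham, between 11.6% and 40.7% in 3d and between 9.32% and 35.2% in 7d. These r values are a description over 9 arrays that share the IP and Sup scaling.

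By expression, the closest were ASCRP4005967 with a Pearson r of 0.94, ASCRP4007905 with 0.94, ASCRP4012970 with 0.94, ASCRP4012115 with 0.93 and ASCRP4013279 with 0.93 over the 9 arrays, against a median r of 0.20 and a 95th percentile of 0.50 over all tested probes. None of these has a gene name here either. ASCRP4005967 had an expression of 2412, 1123 and 1004 in sham, 3681, 2299 and 1085 in 3d, and 1177, 2028 and 1365 in 7d. As with the Malat1 circRNA, sham array 1 was the highest of its group and 3d array 3 the lowest of its own. Such likeness is what a choice by r over these arrays selects, so nothing is read from it. The same probe was next below the Malat1 circRNA by level at 3d.

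**Figure D4:**
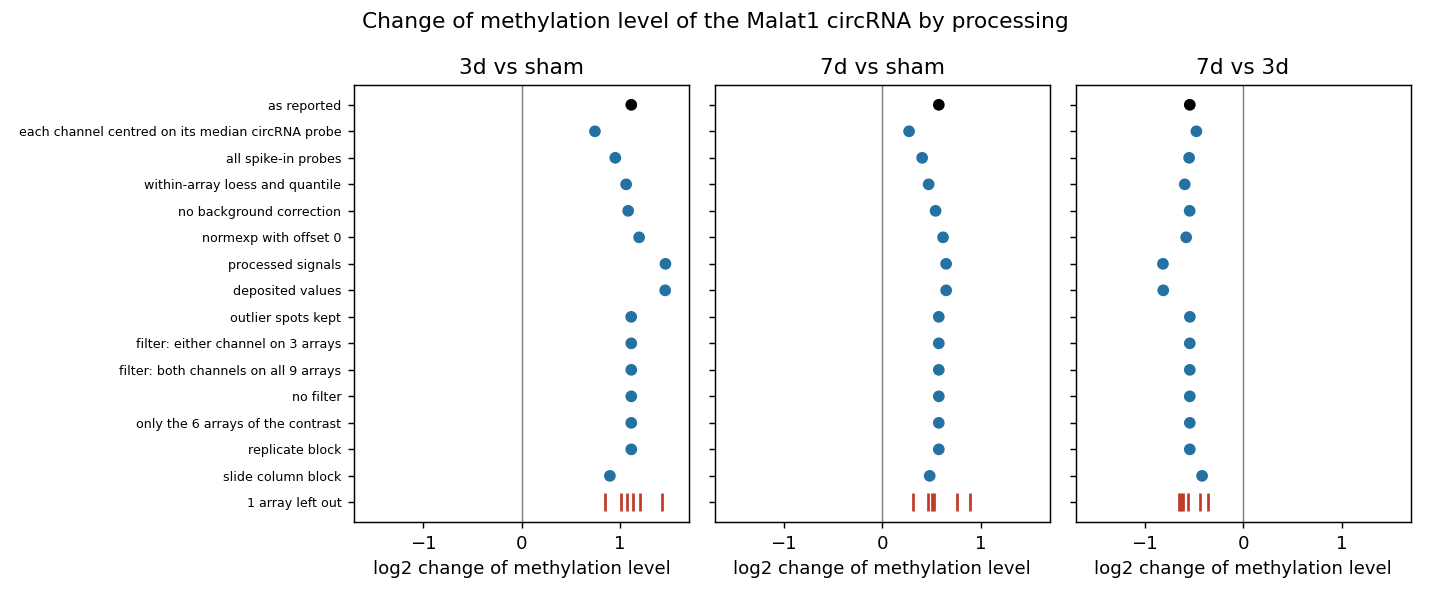
Log2 change of the methylation level of the Malat1 circRNA in the comparisons of 3d with sham, 7d with sham and 7d with 3d (horizontal axes) under each processing setting (vertical axis). Black is the value as reported, blue each alternative, and red bars the values with 1 array left out. Values run from 0.75 to 1.46 for 3d against sham, and none crosses 0 in any of the comparisons. Any setting that changes only the filter or the test repeats the reported value by construction.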

How the data were processed

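The groups of the 9 samples were read from the record titles. Both files of an array hold the same spots, with IP read from Cy5 and Sup from Cy3. The authors deposited scanner intensity values from Agilent Feature Extraction 11.0.1.1, per the submitters' processing notes. They also deposited log2 values, which are processed signals less a spike-in constant per channel. Averaging 10 spike-in probes out of 102 recovered that constant, with a largest difference of 5.57e-10. The header names mm9 as the design build, and no coordinates were used.

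Median intensities were corrected with normexp and an offset of 50 (limma 3.58.1, R 4.3.3, jsonlite 2.0.0), spots marked as outliers were left out, and each channel was shifted to the same mean over those 10 probes. The 12211 circRNA probes marked well above background for IP and Sup alike on 3 or more arrays were fitted together with lmFit and eBayes, with P values adjusted over all of them by the Benjamini-Hochberg method. IP and Sup alone were not tested. Replicate numbers were those of the titles, which the descriptions of 3 samples contradict. The level deviations of same-numbered arrays correlated over 0.1 in each of 3 pairs of 3d with sham and of 3d with 7d, and in none of sham with 7d. Some pairs with other numbers correlated as highly, so these correlations do not settle the pairing. The fit was tested on simulated data. The number of arrays limits the precision. Names were joined for all 60 listed entries.

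The circRNA and the lists were chosen with earlier results of these data known. The circRNAs named were the 5 most alike by level and by expression, the direct neighbours in rank, and the listed intronic and sense overlapping ones. The alternatives were 5 scalings or signals, 2 other background settings, 3 filters, the 6 arrays of a contrast, the replicate number and the slide column as blocks, outlier spots kept, the methods' test, adjusted P values and each array left out.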

Additional observations from a re-analysis of the deposited data

How the results depend on the processing

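The direction of the 3 level changes was the same under every alternative run. Some alternatives cannot move the estimate, so their agreement in direction is fixed by construction. These were the filters, the fit on the arrays of a contrast alone, the replicate number as a block, the methods' test and adjusted P values. The direction is therefore less widely tested than the list of alternatives shows. From sham to 3d the log2 level change lay between 0.75 (channels centred on their median circRNA) and 1.46 (processed signals), and between 0.85 and 1.43 with 1 array left out. From sham to 7d it lay between 0.27 and 0.65, and with 1 array left out between 0.31 and 0.89. From 3d to 7d it passed the threshold with loess and quantile normalization at -0.59, with processed signals at -0.81 and with deposited values at -0.81, and lay between -0.65 and -0.36 with 1 array left out. Its adjusted P ranged from 0.0457 to 0.218 over the alternatives with all arrays of the comparison. Expression from 3d to 7d passed with the slide column block at -0.60, and lay between -0.71 and -0.26 with 1 array left out. Expression from sham to 7d changed sign in 3 of 16 alternatives, at most to -0.08, with a highest value of 0.69. Those 16 include the ones that cannot move the estimate, so the sign is less stable than this count shows. With 1 array left out this expression change lay between -0.04 and 0.40. From sham to 3d expression lay between 0.48 and 0.94, and with 1 array left out between 0.39 and 0.86. The cause was not tested.

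The replicate numbers are those of the titles. The descriptions give other numbers to 7d replicates 2 and 3 and sham replicate 3, with number 1 on all 3 of the 7d samples, so they could not serve as a block, and the pairing rests on the titles alone. The level deviations of same-numbered arrays correlated at 0.21 to 0.45 between sham and 3d and at 0.13 to 0.33 between 3d and 7d, over 0.1 in 3 of 3 pairs each, but at -0.01 to 0.04 between sham and 7d. Arrays with other numbers correlated at -0.44 to 0.27 between sham and 3d and at -0.31 to 0.23 between 3d and 7d. These ranges overlap those of the same-numbered arrays, so the correlations do not settle the pairing. With the replicate number as a block, the level change from sham to 7d stayed at 0.57 (limma P 0.00832, adjusted P 0.202) and that from 3d to 7d at -0.54 (limma P 0.0111, adjusted P 0.0457), both under the fold threshold. No call of the Malat1 circRNA changed with this block.

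The share of circRNA probes called depended far more on the processing. By level it was 2.0% for 3d against sham, with a range of 0.721% to 18.7%, 0.442% for 7d against sham with 0% to 7.39%, and 3.91% for 7d against 3d with 0.958% to 26.1%. By expression the ranges were 0.156% to 22.4%, 0.213% to 14.2% and 4.15% to 28.4%.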

Other observations

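The 10 circRNA probes with the highest mean level at 3d, a set chosen after its values were seen, held the Malat1 circRNA and 9 others that have no gene name here. The 9 others were already high in sham, with mean levels between 47.6% and 63.8%, and between 64.3% and 71.4% in 3d. Their sham and 3d arrays overlapped in 9 of 9, as did those of 67.1% of all tested probes with values on these arrays, and their log2 changes were between 0.04 and 0.50. The Malat1 circRNA came from 32.4% in sham, but it was chosen for a 3d level above sham, so nothing is read from this contrast with the 9 others. At 7d the 9 others had mean levels between 54.2% and 63.3%, all above the 46.3% of the Malat1 circRNA.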
